A study of Mus musculus with 24 samples.

Results

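Transcripts of 34 genes that copy DNA in S phase, or supply the nucleotides for it, were followed in mouse liver before and after acetaminophen (APAP) overdose. The genes were chosen by symbol, and all 34 were among the 24411 genes counted. They cover origin licensing (Orc1, Orc6, Cdc6, Cdt1 and Mcm2 to Mcm7), origin firing (Mcm10, Cdc45, Gins1 and Gins2), DNA synthesis (Pola1, Prim1, Pole, Pcna, Rfc3, Rfc4 and Rfc5), lagging-strand joining (Fen1 and Lig1), nucleotide supply (Rrm1, Rrm2, Tyms, Tk1 and Dut), checkpoint and repair (Chek1, Brca1 and Brca2) and S-phase chromatin and regulation (Uhrf1, Slbp and Mybl2).

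Livers came from male mice that carried floxed alleles of E2f7 and E2f8, which encode E2F family transcription repressors. In liver-specific knockout (LKO) mice both genes were deleted for life by Cre under the albumin promoter (Alb-Cre), and their control littermates lacked Cre. LKO mice and these controls were of mixed background, predominantly FVB, and carried the R26R-mTmG reporter. Mice were fasted for about 16 h at 2.5 months of age, and those of the later times received 300 mg/kg APAP, while the 0 h mice of this cohort received none. In hepatocyte-specific knockout (HKO) mice the floxed genes were deleted at 2 months of age with AAV8-TBG-Cre, a virus whose TBG promoter is active in hepatocytes, and HKO controls received AAV8-TBG-Null. The HKO cohort was fasted at the same age, and its 0 h libraries are used here. At 0 h, 4 LKO mice, 4 of their controls, 3 HKO mice and 3 HKO controls were sequenced singly. At 12, 24, 48, 72 and 96 h after APAP, 1 library per genotype was made from the pooled RNA of 3 LKO mice or of 3 controls, so that a genotype difference at one time has no replicate check. Alb-Cre acts in cells of the hepatocyte lineage, and whole liver RNA also holds macrophages, stellate cells and other cells in which neither Cre is expected to act. The libraries held 12665686 to 19499897 reads on genes. Levels are read counts per 1000000 reads (CPM) after scaling by the trimmed mean of M values, and 3 counts, taken as the floor, are worth 0.154 to 0.237 CPM. A gene was called when edgeR's adjusted p was below 0.05 and its fold change was at least 1.5.

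The targeted genes could not check the deletion, because counts were summed over the whole gene, including exons outside the floxed part. E2f8 measured 18.2, 26.4 and 14.8 CPM in HKO controls and 53.1, 83.4 and 30.6 CPM in HKO mice, so every library labelled HKO lay above every control. In the LKO cohort at 0 h, E2f8 measured 18.9, 18.3, 15.9 and 11.8 CPM in controls and 22.0, 26.3, 34.1 and 18.0 CPM in LKO mice. E2f7 stayed at or below 1.33 CPM in all 14 mice at 0 h.

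Before S phase, the origin recognition complex, Cdc6 and Cdt1 load the Mcm2 to Mcm7 helicase onto origins. Cdc45, the GINS complex and Mcm10 then turn the helicase on, and polymerases follow with the Pcna clamp and its Rfc loader. Genes of this set are known targets of the E2F family, in which E2F1 to E2F3 activate and E2F7 and E2F8 repress, and most hepatocytes of an adult liver are quiescent until injury brings them back into the cycle.

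Promoter words of the E2F consensus were looked for in the set. Windows of 5 genes that hold one are shown, for Cdc6, Mcm5, Mcm6 and Uhrf1 because their transcripts rose steeply after APAP, and for Brca2 because no rise of it was called. In RefSeq promoters of build GRCm38.p6, which reach 250 bases before to 50 after a start, 30 of the 34 genes were matched, and 12 of these 30 genes (40%) held at least 1 of the words TTTCCCGC, TTTCGCGC, TTTGCCGC or TTTGGCGC on either strand, against 704 of 27025 genes (2.6%) overall. Overlapping matches were counted apart. Each sequence below is 60 bases, read 5′ to 3′ along the strand of its gene, with the match in capitals. None of these windows overlapped an exon annotated in GENCODE vM21, those of Cdc6 and Uhrf1 lay in introns of their own gene before a later start, and the others lay upstream of the gene. They lay at chr11:98907987-98908046 (plus strand, Cdc6), chr17:56304102-56304161 (plus strand, Uhrf1), chr8:75109334-75109393 (plus strand, Mcm5), chr1:128359719-128359778 (minus strand, Mcm6) and chr5:150522427-150522486 (plus strand, Brca2).
Cdc6: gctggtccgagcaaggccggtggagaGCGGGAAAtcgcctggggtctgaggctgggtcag
Uhrf1: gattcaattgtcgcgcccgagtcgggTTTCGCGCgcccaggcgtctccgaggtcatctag
Mcm5: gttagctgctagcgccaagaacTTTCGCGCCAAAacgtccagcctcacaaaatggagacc
Mcm6: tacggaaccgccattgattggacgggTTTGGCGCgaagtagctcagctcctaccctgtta
Brca2: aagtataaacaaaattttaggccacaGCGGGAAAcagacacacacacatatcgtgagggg

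Mcm5 held 2 overlapping matches, on opposite strands, and Mcm6 held 3 in its whole promoter, of which 1 is printed. The other genes with a match were Mcm3, Orc1, Mcm7, Rfc3, Lig1, Cdt1 and Pola1. Steep rises were also seen without a match. Mcm2, Rrm2 and Prim1 held none and stood 12.1-fold, 9.02-fold and 8.19-fold higher in the 72 h control pool than at 0 h. A match says that these letters are present and does not show a bound site. Among 40 further replication genes with a promoter in the same table, 13 (32.5%) held a match, and among 11 mitotic genes 1 (9.09%) did.

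In the uninjured control liver, transcripts of the set differed widely in level. Compared per kilobase of annotated exon, Mcm10, which helps start the helicase, stood first at 24.3 CPM per kb, ahead of Pcna at 9.22, Tk1 at 7.34, Dut at 3.71 and Mcm7 at 3.66. The lowest levels per kb were those of Orc1 (0.0303), Cdc6 (0.0476), Gins2 (0.0526) and Uhrf1 (0.101). The place of Gins2 is uncertain, because 2758 of its 4097 exonic bases are shared with Gse1, and reads ambiguous between genes were left out. At 72 h after APAP the control pool held Pcna first at 36.3 CPM per kb, then Rrm2 at 17.5, and Mcm5 and Mcm6 at 12.7 each, while Brca2 was lowest at 0.542. In this order of the 34 genes, Mcm5 moved from rank 27 and Mcm6 from rank 22 to a shared rank 3, and Mcm10 from rank 1 to rank 13.

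Whether deletion of E2f7 and E2f8 in adult hepatocytes alone shifts these transcripts was asked in the HKO cohort at 0 h. Of 30 genes with enough reads, 1 was lower in HKO mice and 0 were higher. Over all genes, 0.54% were lower and 0.419% higher. That gene was Tk1, the cytosolic thymidine kinase that salvages thymidine (chr11:117815526-117826092, mm10, minus strand). Tk1 measured 34.3, 33.4 and 43.5 CPM in the 3 HKO control mice and 14.7, 17.2 and 19.2 CPM in the 3 HKO mice. The groups did not overlap, and HKO mice held the lower level (log2 fold change -1.12, SE 0.149, adjusted p = 0.00927 by edgeR's quasi-likelihood test). Beside it lies Afmid, a kynurenine pathway enzyme on the opposite strand, which shares 83 exonic bases with Tk1 and was singled out after its values were seen. Afmid measured 254, 234 and 230 CPM in the 3 HKO control mice and 130, 157 and 159 CPM in the 3 HKO mice (log2 fold change -0.69, SE 0.109, adjusted p = 0.0225 by edgeR). Both genes were thus lower in HKO mice. The libraries do not mark strand, and reads that STAR held ambiguous between genes were left out. How the overlap bears on the Tk1 value was not tested. In whole liver, fewer cells that express a gene and less of its RNA per cell cannot be told apart.

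The other 29 tested genes did not pass in the HKO comparison, and the median log2 difference of the set was -0.08, beside 0.01 over all genes. Brca1, a homologous recombination factor, measured 7.12, 6.48 and 5.05 CPM in the 3 HKO control mice and 4.24, 2.16 and 3.16 CPM in the 3 HKO mice (log2 fold change -0.96, SE 0.280, adjusted p = 0.172 by edgeR). The groups did not overlap, yet the call was missed. Chek1, the kinase that restrains cells with stalled forks, measured 1.04, 0.828 and 0.505 CPM in the 3 HKO control mice and 0.182, 0.191 and 0.659 CPM in the 3 HKO mice (log2 fold change -1.20, SE 0.612, adjusted p = 0.470 by edgeR). Its control values spread widely, and 1 HKO mouse lay within them. Licensing genes stood slightly higher, with 7 of 8 tested genes above control and a median log2 difference of 0.33, and all 3 checkpoint and repair genes stood lower. The groups did not overlap for 9 of 30 genes (30%), against 18% of all genes tested. Mcm6, Prim1, Rfc4, Mcm7 and Orc6 were the higher ones and Tk1, Brca1, Cdc45 and Brca2 the lower ones.

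Lifelong deletion was examined in the same way in uninjured LKO livers, and no gene of the set passed. Of 31 tested genes 0 were called, and 0% of all genes were. Of the set, 24 stood above control, with a median log2 difference of 0.26 beside 0.00 over all genes. Before adjustment, 5 of the 31 genes and 352 of all 12426 genes had a p under 0.05 by edgeR. Under DESeq2, 0 of the set and 3 of all genes were called.

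The 8 tested licensing genes all stood above control in LKO mice, with a median of 0.45. Uhrf1, which carries DNA methylation through replication (chr17:56303321-56323486, mm10, plus strand), measured 0.354, 0.430, 0.253 and 0.677 CPM in the 4 control mice and 1.93, 1.20, 0.864 and 2.69 CPM in the 4 LKO mice (log2 fold change 1.92, SE 0.457, adjusted p = 0.999 by edgeR). Mcm5, a helicase subunit (chr8:75109569-75128439, mm10, plus strand), measured 0.944, 1.00, 1.85 and 1.48 CPM in the 4 control mice and 2.07, 2.67, 2.19 and 4.40 CPM in the 4 LKO mice (log2 fold change 1.11, SE 0.342, adjusted p = 0.999 by edgeR). In both, every LKO mouse lay above every control although the adjusted p was far from the threshold. The same held for Mcm3, another subunit, at 3.78, 3.37, 3.28 and 2.65 CPM in the 4 control mice and 4.13, 4.36, 4.84 and 5.61 CPM in the 4 LKO mice (log2 fold change 0.54). These 3 of 31 genes (9.68%) were the ones whose groups did not overlap, against 1.75% of all genes tested. On the other side, Mcm10 measured 166, 226, 256 and 98.9 CPM in the 4 control mice and 91.3, 88.0, 130 and 114 CPM in the 4 LKO mice (log2 fold change -0.82), and its groups overlapped. Orc1, Cdc6 and Gins2 had too few reads to be tested at 0 h in either cohort, and Uhrf1 in the HKO cohort.

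A direct test of whether the deletion acted differently in LKO and HKO livers called 0 of 31 genes, with 0% of all genes called. Unadjusted, 4 of the 31 and 579 of all 12945 genes had a p under 0.05 by edgeR. DESeq2 called 21 of all genes and none of the set. The difference of the LKO and HKO effects was 1.08 for Tk1 (SE 0.383, adjusted p = 0.914 by edgeR), 1.06 for Brca1, 1.32 for Mcm5 and 1.64 for Uhrf1 on the log2 scale. That of Uhrf1 rests on 3 to 6 counts in HKO controls and 2 to 8 in HKO mice. The fall of Tk1 in HKO mice was therefore not shown to differ from its value in LKO mice, where it measured 50.0, 37.8, 19.3 and 45.5 CPM in the 4 control mice and 24.4, 38.5, 49.9 and 35.1 CPM in the 4 LKO mice. The cohorts also differ in virus, age at deletion and share of reads outside genes (12.6% to 14.7% in the HKO cohort and 8.47% to 10.8% in the LKO cohort at 0 h), which cannot be told apart from the deletion model.

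**Figure D1:**
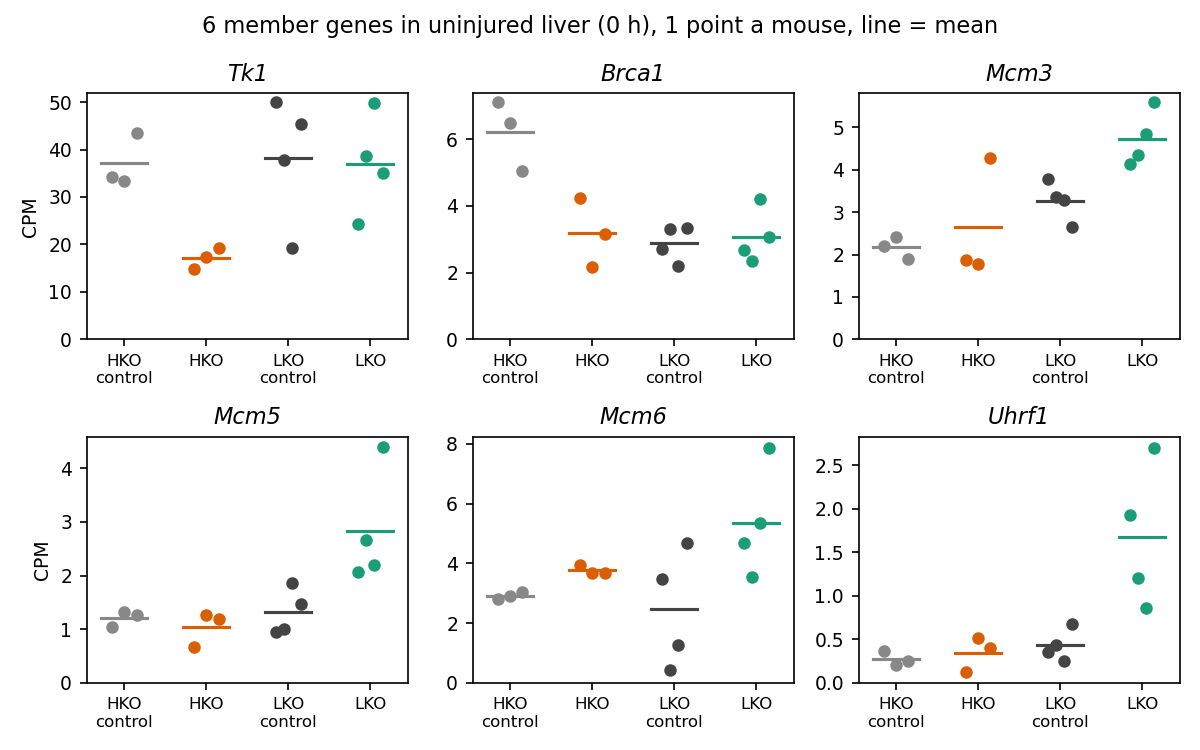
Levels of 6 genes in single mice at 0 h, as CPM on a linear axis from 0, with 1 point per mouse and a line at each group's mean for HKO controls, HKO, LKO controls and LKO. Tk1 and Brca1 sit lower in all 3 HKO mice than in their controls, and Uhrf1 and Mcm5 sit higher in all 4 LKO mice than in theirs.

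After APAP the set fell in part, then rose nearly as a whole, and had no called gene at 96 h. At 12 h, 5 of 34 genes (14.7%) were higher and 11 (32.4%) lower than at 0 h, while 16.5% of all genes were higher and 14.1% lower. At 24 h 16 genes were higher and 3 lower, beside 13.7% and 11.2% of all genes. At 48 h 29 genes (85.3%) were higher and 1 lower, beside 9.63% and 6.3%. At 72 h 31 genes (91.2%) were higher and 0 lower, beside 10.8% and 5.62%. With a stranded count column, which holds only part of the same reads, the 16 calls at 12 h were 9. Fits of a single genotype set 1 pool against 4 mice and assume that the lone pool varies like the mice. Only their median log2 changes of the set are therefore given. From 12 to 96 h these were -0.2061, 0.8974, 1.6964, 2.5766 and 0.3645 in control libraries. In LKO libraries they were -0.45, 0.3899, 1.5038, 1.864 and 0.7642. With both genotypes in the fit, the median log2 change of the set from 12 to 96 h was -0.18, 0.79, 1.65, 2.24 and 0.71. Each test compared 2 pools, 1 per genotype, with the same 8 mice at 0 h in a fit with genotype as a term, so the 5 comparisons share their reference mice. Values of pools are given throughout in the order 12, 24, 48, 72 and 96 h. The spread behind the p-values comes from the single mice at 0 h and from how far the pair of pools at each time differ.

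**Figure D2:**
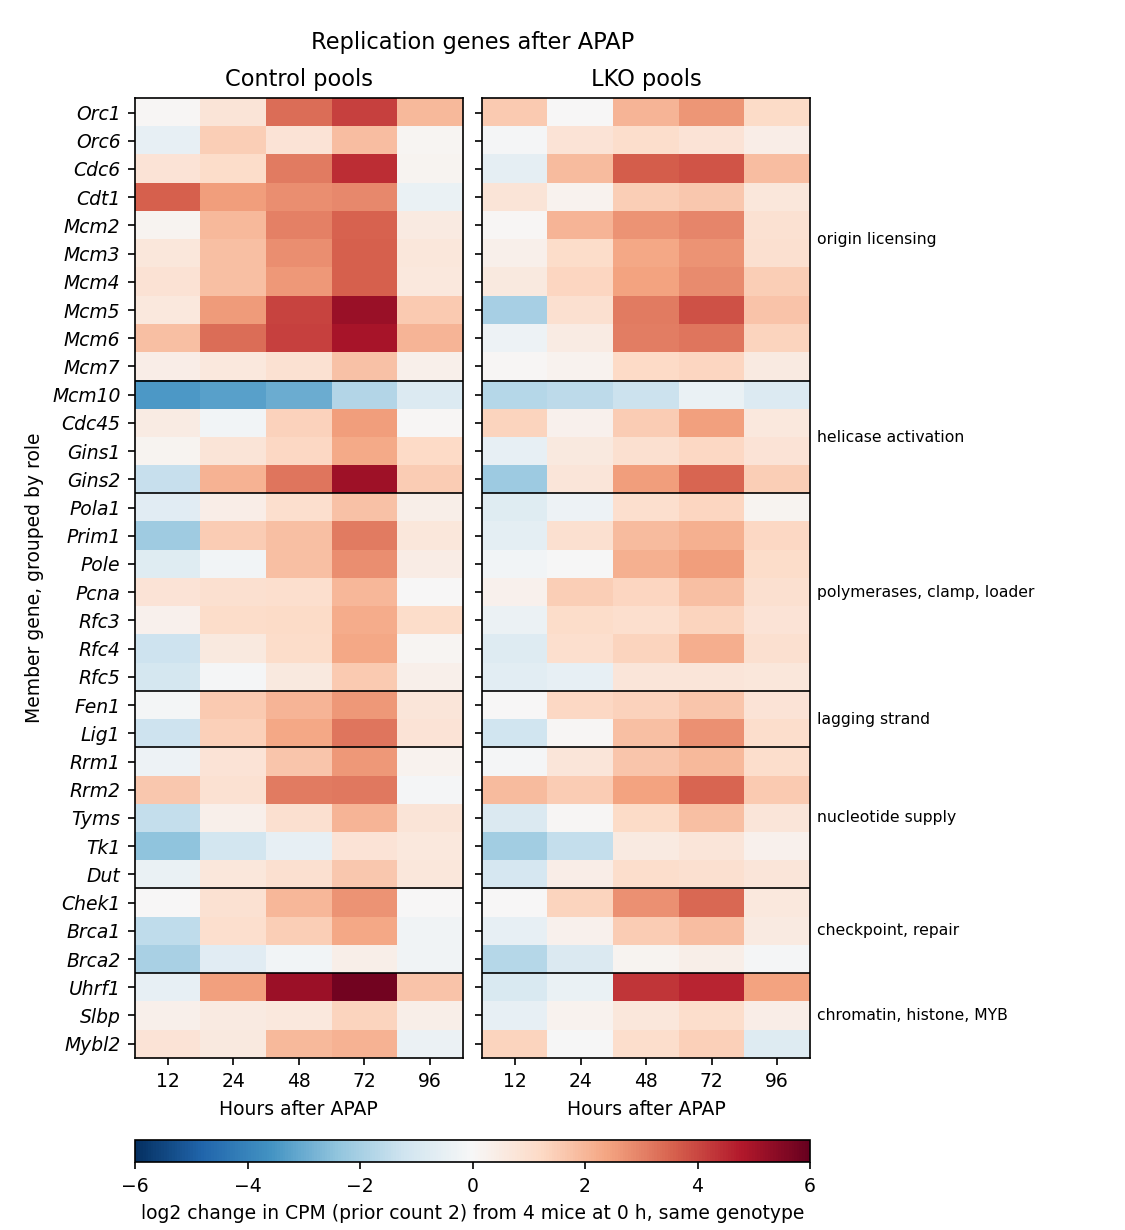
Heat map of the log2 change (CPM with a prior count of 2) of all 34 genes against the mean of the 0 h mice of the same genotype, with genes in rows by role and the control and LKO pools at 12 to 96 h in columns. Most rows turn from near 0 or below at 12 h to high at 48 and 72 h, while Mcm10, Tk1 and Brca2 do not follow them.

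Licensing genes rose together. Of 10, 2 were higher at 12 h, 8 at 24 h, and all 10 at 48 and 72 h, with median log2 changes of 0.43, 1.51, 2.73 and 3.27. Mcm5 in control livers measured 0.944, 1.00, 1.85 and 1.48 CPM in the 4 mice at 0 h and 2.01, 8.12, 23.2, 50.7 and 4.04 CPM in the 5 pools. LKO livers held 2.07, 2.67, 2.19 and 4.40 CPM in the mice and 0.586, 5.44, 24.5, 39.6 and 9.21 CPM in the pools. Its level was low at 0 and 12 h, rose at 24 h and was highest at 72 h in both genotypes (at 24 h log2 fold change 1.75, SE 0.412, adjusted p = 0.00502; at 72 h log2 fold change 4.49, SE 0.370, adjusted p = 2.54e-07 by edgeR). Mcm6, of the same ring (chr1:128331590-128359664, mm10, minus strand), measured 3.48, 0.430, 1.26 and 4.68 CPM in the 4 mice at 0 h and 6.63, 19.1, 32.9, 59.2 and 7.65 CPM in the 5 pools. LKO livers held 4.68, 3.54, 5.36 and 7.86 CPM in the mice and 4.16, 7.25, 44.1, 49.2 and 13.2 CPM in the pools. Mcm6 followed the course of Mcm5, and the 48 and 72 h pools lay above every mouse at 0 h (at 48 h log2 fold change 3.30, SE 0.464, adjusted p = 1.42e-04 by edgeR). Mcm2 measured 2.77, 2.22, 2.86 and 2.71 CPM in the 4 mice at 0 h and 2.92, 10.4, 22.2, 31.9 and 3.83 CPM in the 5 pools. LKO livers held 4.34, 3.59, 2.82 and 2.75 CPM in the mice and 3.52, 14.0, 22.4, 25.9 and 6.36 CPM in the pools. Of the called genes, Mcm2 had the largest increase of the set at 24 h (log2 fold change 2.01, SE 0.200, adjusted p = 6.47e-06 by edgeR).

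Cdc6, the loading factor (chr11:98907801-98923940, mm10, plus strand), was nearly absent at 0 h. Control livers held 0.354, 0.143, 0.253 and 0.246 CPM in the 4 mice at 0 h and 0.520, 0.666, 2.99, 7.72 and 0.283 CPM in the 5 pools. LKO livers held 0.276, 0.435, 0.173 and 0.385 CPM in the mice and 0.176, 1.45, 5.09, 5.74 and 1.43 CPM in the pools. All 4 pools at 48 and 72 h lay above every 0 h mouse (log2 fold change 4.57, SE 0.418, adjusted p = 8.11e-07 at 72 h by edgeR). Counts of Cdc6 at 0 h were 2 to 6 in control and 3 to 8 in LKO mice. These lie near the floor of 3, so the size of the fitted change is uncertain. Orc1, the large subunit of the origin recognition complex, measured 0, 0, 0.421 and 0 CPM in the 4 mice at 0 h and 0.0650, 0.182, 1.67, 2.94 and 0.567 CPM in the 5 pools. LKO livers held 0.0689, 0.109, 0.173 and 0.330 CPM in the mice and 0.704, 0.155, 1.02, 1.63 and 0.493 CPM in the pools. Counts of Orc1 at 0 h lay at or under the floor in most mice, so its fitted log2 change of 4.05 at 72 h (edgeR's adjusted p = 0.00126) depends on the prior count. Orc6, Mcm3, Mcm4 and Mcm7 were higher at 72 h by log2 1.40, 3.19, 3.26 and 1.54. Orc6 and Mcm7 share exonic bases with a gene on the other strand (171 with Vps35, and 321 with Ap4m1 and 64 with Cops6).

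Cdt1, which brings the helicase to origins, was the one gene of the set with its highest control pool at 12 h. Control livers held 2.01, 2.08, 1.94 and 5.23 CPM in the 4 mice at 0 h and 31.6, 15.0, 18.3, 19.4 and 1.91 CPM in the 5 pools. LKO livers held 4.00, 4.63, 3.63 and 4.56 CPM in the mice and 7.15, 4.87, 11.9, 13.1 and 6.80 CPM in the pools. The 12 h call (log2 fold change 2.42, SE 0.493, adjusted p = 0.00151 by edgeR) was made with both pools above every mouse. In LKO libraries alone, which hold 1 pool against 4 mice, the log2 change was 0.78. Mcm4 at 12 h was a weaker call. Its control pool measured 5.20 and its LKO pool 4.34 CPM, against 3.84, 2.51, 2.78 and 2.15 CPM in control and 2.62, 3.70, 2.88 and 2.36 CPM in LKO mice (log2 fold change 0.75, SE 0.275, adjusted p = 0.0429 by edgeR), and leaving out any mouse but LKO control replicate 1 or LKO replicate 2 ended the call.

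Among the firing factors, Gins1, Gins2 and Cdc45 rose and Mcm10 fell. Gins1, a subunit of the GINS complex, measured 2.24, 3.37, 1.60 and 2.40 CPM in the 4 mice at 0 h and 2.60, 4.00, 5.72, 11.5 and 5.46 CPM in the 5 pools. LKO livers held 2.41, 3.92, 2.42 and 3.30 CPM in the mice and 2.05, 4.45, 5.94, 7.18 and 5.26 CPM in the pools. Pools from 48 h to 72 h lay well above the mice (log2 fold change 1.78, SE 0.265, adjusted p = 1.49e-04 at 72 h by edgeR). Gins2, of the same complex, measured 0.177, 0.286, 0.337 and 0.0616 CPM in the 4 mice at 0 h and 0, 1.21, 2.79, 10.7 and 0.779 CPM in the 5 pools. LKO livers held 0.482, 0.435, 0.288 and 0.550 CPM in the mice and 0, 0.777, 3.00, 6.12 and 1.43 CPM in the pools. It was called lower at 12 h, with 0 counts in both pools and 1 to 10 counts in the mice, so no fold is given there, and at 72 h it was higher by a fitted log2 4.70 (edgeR's adjusted p = 6.53e-07). Gins2 shares 2758 exonic bases with Gse1 on the opposite strand, so its counts are uncertain. Cdc45 measured 1.48, 1.86, 2.69 and 1.54 CPM in the 4 mice at 0 h and 2.66, 1.64, 5.06, 10.9 and 1.91 CPM in the 5 pools. LKO livers held 2.07, 1.47, 1.09 and 2.42 CPM in the mice and 4.46, 2.02, 5.09, 9.86 and 2.69 CPM in the pools. It was higher at 12 h already (log2 fold change 0.98, SE 0.304, adjusted p = 0.0199 by edgeR) and again at 48 and 72 h, and its 24 h pools lay within the range of the mice.

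Mcm10 (chr2:4989714-5012791, mm10, minus strand) ran against the rest of the helicase genes. Control livers held 166, 226, 256 and 98.9 CPM in the 4 mice at 0 h and 16.1, 18.4, 22.1, 52.2 and 101 CPM in the 5 pools. LKO livers held 91.3, 88.0, 130 and 114 CPM in the mice and 32.1, 35.4, 42.2, 79.0 and 59.2 CPM in the pools. All 6 pools from 12 to 48 h lay below all 8 mice at 0 h, and the gene was lower at 12 h (log2 fold change -2.56, SE 0.506, adjusted p = 0.00121), at 24 h (log2 fold change -2.42, SE 0.501, adjusted p = 0.00215) and at 48 h (log2 fold change -2.17, SE 0.491, adjusted p = 0.00651), all by edgeR. At 72 h its log2 change was -1.15 (edgeR's adjusted p = 0.0895). No other annotated gene lay within 1000 bases of Mcm10. Phyh, a peroxisomal enzyme gene farther along the same chromosome and singled out after its values were seen, was not called at 12 h (log2 change -0.53, adjusted p = 0.0798 by edgeR) and was lower at 24, 48 and 72 h (log2 fold changes of -1.16, -1.06 and -0.73, adjusted p = 0.00195, 0.00569 and 0.0352 by edgeR). Optn, on the other side of Mcm10, was not called at 24 or 48 h (log2 changes of -0.49 and -0.40).

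Of the 7 DNA synthesis genes, 0 were higher and 3 lower at 12 h, 4 were higher at 24 h, 5 at 48 h and 7 at 72 h. Pcna, the sliding clamp, measured 17.2, 28.7, 24.2 and 18.3 CPM in the 4 mice at 0 h and 38.4, 42.3, 44.1, 87.2 and 22.3 CPM in the 5 pools. LKO livers held 24.8, 15.3, 16.4 and 18.5 CPM in the mice and 22.2, 51.5, 45.0, 65.4 and 35.5 CPM in the pools. Its 72 h pools lay above every other library of the cohort (log2 fold change 1.89, SE 0.225, adjusted p = 1.33e-05 by edgeR). Pole and Prim1, the leading-strand polymerase and the primase, changed by log2 2.68 and 2.67 at 72 h. Pola1, the priming polymerase, changed by 1.51, and the clamp loader genes Rfc3, Rfc4 and Rfc5 by 1.71, 2.29 and 1.19. All 6 were called. At 12 h, Pola1, Rfc4 and Rfc5 were lower, by log2 values of -0.74, -1.09 and -0.84. Rfc4 shares 194 exonic bases with Eif4a2 and Rfc5 499 with Wsb2, both more abundant genes on the opposite strand. The 12 h call of Pola1 ended when any mouse but LKO control replicate 3 or LKO replicate 2 was left out.

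Fen1, the flap nuclease of lagging-strand synthesis, measured 4.43, 4.08, 4.38 and 4.49 CPM in the 4 mice at 0 h and 3.96, 13.0, 18.0, 27.0 and 7.23 CPM in the 5 pools. LKO livers held 5.58, 4.95, 3.05 and 5.77 CPM in the mice and 4.81, 11.4, 12.4, 15.3 and 8.28 CPM in the pools. It was not called at 12 h (log2 change -0.04) and was higher from 24 to 72 h (log2 fold change 2.18, SE 0.223, adjusted p = 2.58e-06 at 72 h by edgeR). Fen1 shares 130 exonic bases with Tmem258 on the opposite strand, which was higher at 24 h (log2 fold change 0.89, adjusted p = 0.0239 by edgeR), and 1909 with the antisense gene Gm10143. How these overlaps bear on the Fen1 values was not tested. Lig1, the ligase that seals the strand, measured 3.48, 1.86, 1.26 and 5.29 CPM in the 4 mice at 0 h and 1.04, 7.27, 13.5, 25.3 and 4.68 CPM in the 5 pools. LKO livers held 2.20, 5.33, 3.28 and 4.95 CPM in the mice and 1.58, 3.88, 13.4, 26.0 and 7.89 CPM in the pools. Both 12 h pools lay near the lowest mice (log2 fold change -1.38, SE 0.485, adjusted p = 0.0358 by edgeR), and by 72 h the level had risen (log2 fold change 2.88, SE 0.345, adjusted p = 1.36e-05 by edgeR). The 12 h call of Lig1 ended without LKO control replicate 4 (-1.24), LKO replicate 2 (-1.28) or LKO replicate 4 (-1.31, log2 scale).

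Nucleotide supply split into genes that rose and Tk1. Rrm2, the inducible subunit of ribonucleotide reductase, measured 3.84, 6.59, 6.31 and 4.80 CPM in the 4 mice at 0 h and 16.5, 9.87, 46.9, 48.6 and 5.03 CPM in the 5 pools. LKO livers held 12.1, 7.08, 2.02 and 8.30 CPM in the mice and 23.1, 17.8, 33.0, 70.1 and 18.5 CPM in the pools. Rrm2 was higher at 12 h (log2 fold change 1.66, SE 0.391, adjusted p = 0.00407 by edgeR) and further at 72 h (log2 fold change 3.21, SE 0.366, adjusted p = 8.18e-06 by edgeR). Rrm1, the large subunit, and Tyms and Dut, which make and guard thymidylate, were higher at 72 h by log2 2.31, 1.93 and 1.27, after Tyms and Dut had been lower at 12 h (-1.15 and -0.72). Tk1 in control livers measured 50.0, 37.8, 19.3 and 45.5 CPM in the 4 mice at 0 h and 6.56, 16.8, 25.6, 64.1 and 56.2 CPM in the 5 pools. LKO livers held 24.4, 38.5, 49.9 and 35.1 CPM in the mice and 8.27, 13.1, 52.9, 60.2 and 42.4 CPM in the pools. Tk1 was lower at 12 h (log2 fold change -2.32, SE 0.368, adjusted p = 2.10e-04) and 24 h (log2 fold change -1.34, SE 0.338, adjusted p = 0.00791) by edgeR, and at 48 and 72 h its log2 changes of 0.05 and 0.72 did not pass. Its neighbour Afmid moved in the same direction, with log2 changes of -0.81 at 12 h (adjusted p = 0.0463) and -1.29 at 24 h (adjusted p = 0.00611) by edgeR. How the overlap with Afmid bears on these changes was not tested.

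Of the checkpoint and repair genes, Chek1 and Brca1 were higher at 72 h, and no increase of Brca2 was called. Chek1 in control livers measured 1.30, 1.22, 1.60 and 0.308 CPM in the 4 mice at 0 h and 0.974, 1.94, 4.15, 7.00 and 0.992 CPM in the 5 pools. LKO livers held 0.895, 0.708, 0.634 and 1.10 CPM in the mice and 0.821, 2.23, 6.22, 10.0 and 1.32 CPM in the pools. It was higher at 72 h (log2 fold change 3.12, SE 0.349, adjusted p = 6.51e-06 by edgeR), and Brca1, lower at 12 h (log2 fold change -0.96, adjusted p = 0.0459 by edgeR), was higher at 72 h by log2 2.10. Brca2, which loads the recombinase at broken forks, measured 7.20, 5.51, 4.55 and 6.09 CPM in the 4 mice at 0 h and 1.43, 3.51, 5.12, 7.39 and 5.03 CPM in the 5 pools. LKO livers held 6.27, 4.41, 9.85 and 7.37 CPM in the mice and 1.99, 3.62, 7.58, 8.66 and 6.36 CPM in the pools. Both 12 h pools lay below every mouse (log2 fold change -1.88, SE 0.305, adjusted p = 2.42e-04 by edgeR), the gene was still lower at 24 h (log2 fold change -0.84, adjusted p = 0.0301 by edgeR), and at 48 and 72 h its log2 changes of -0.04 and 0.32 did not pass.

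Uhrf1 had the largest increase of the set at 48 and 72 h. Control livers held 0.354, 0.430, 0.253 and 0.677 CPM in the 4 mice at 0 h and 0.260, 2.79, 18.5, 29.5 and 1.63 CPM in the 5 pools. LKO livers held 1.93, 1.20, 0.864 and 2.69 CPM in the mice and 0.762, 1.14, 32.3, 39.6 and 8.77 CPM in the pools. Both 72 h pools lay far above all 8 mice (log2 fold change 5.20, SE 0.425, adjusted p = 2.41e-07 by edgeR). Mybl2, a transcription factor that drives the step from S phase to mitosis, measured 0.413, 0.573, 0.758 and 0.985 CPM in the 4 mice at 0 h and 1.23, 1.03, 2.89, 3.14 and 0.496 CPM in the 5 pools. LKO livers held 0.620, 0.925, 0.519 and 0.550 CPM in the mice and 1.82, 0.622, 1.47, 1.91 and 0.329 CPM in the pools. Mybl2 was higher at 12, 48 and 72 h (log2 fold change 1.23, SE 0.393, adjusted p = 0.0227 and log2 fold change 1.87, SE 0.370, adjusted p = 0.00206 at 12 and 72 h by edgeR). Slbp, which binds histone mRNA, changed by log2 1.17 at 72 h.

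At 96 h, 0 of 34 genes passed, beside 0.381% of all genes. Before adjustment, 20 of the 34 and 2163 of all 14421 genes had a p under 0.05 by edgeR, and DESeq2 called 5 of the set (Mcm3, Mcm4, Uhrf1, Tyms and Mcm5) and 332 of all genes. The gene nearest to a call was Uhrf1 (log2 fold change 2.18, SE 0.474, adjusted p = 0.0520 by edgeR), and leaving out LKO replicate 4 at 0 h gave calls of Uhrf1 and Mcm5. Of the control libraries, 32 of 34 genes had their highest pool at 72 h, with Cdt1 at 12 h and Mcm10 at 96 h apart. Of the LKO libraries, 31 had it at 72 h and Orc6, Rfc5 and Dut at 48 h.

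**Figure D3:**
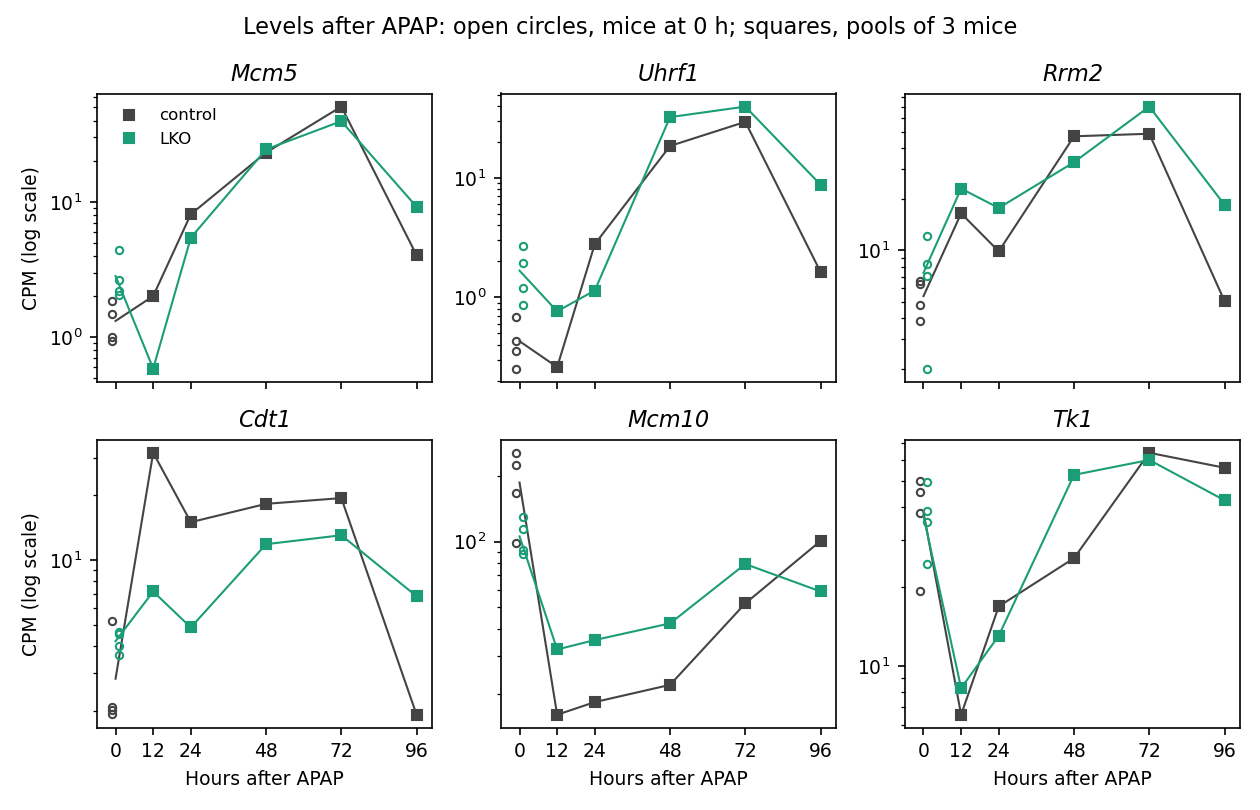
Levels of 6 genes as CPM on a log axis against hours after APAP, with 1 point per single mouse at 0 h and per pool later, and lines that join the mean at 0 h to the pools of control and LKO livers. Mcm5, Uhrf1 and Rrm2 are highest at 72 h in both genotypes, while Mcm10 falls after APAP and is still low at 48 h.

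Whether LKO livers differ from controls after APAP could be tested only over the 5 pairs of pools together, and 0 of 34 genes passed, beside 0.579% of all genes. Before adjustment 1 gene of the set and 2284 of all 12782 genes had a p under 0.05 by edgeR (the 1 was Pole, log2 fold change 0.66, SE 0.231, adjusted p = 0.183), and DESeq2 also called none of the 34, with 606 of all genes called. Without the 96 h pair, Mcm10 was called (log2 fold change 0.85, edgeR's adjusted p = 0.0391). A test of whether the genotype difference changed between 12 to 48 h and 72 to 96 h called 0 of 34, beside 0.149% of all genes, with 2 of the set and 1343 of all genes at an unadjusted p under 0.05 by edgeR. The 2 were Cdt1 (log2 fold change 1.92, SE 0.676, adjusted p = 0.379) and Mcm10 (log2 fold change -1.05, SE 0.385, adjusted p = 0.392), by edgeR. Single pairs of pools are given next as values with no test.

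LKO pools stood above control pools in 21, 13, 26, 8 and 29 of 34 genes at 12, 24, 48, 72 and 96 h, with median log2 differences of 0.30, -0.12, 0.22, -0.39 and 0.61. Over all 14421 genes, the LKO pool stood above in 6975, 7425, 7155, 7490 and 7461. Scaled by library size alone, the 48 h count of the set was 18 of 34 with a median of 0.07, and the median of all genes was then -0.14. A difference of at least 1.5-fold in favour of LKO was seen in 10 genes at 12 h (20.3% of all genes), and in 3, 6, 1 and 17 genes at the later times in turn (9.9%, 18%, 16.7% and 16% of all genes). These were 29.4%, 8.82%, 17.6%, 2.94% and 50% of the set from 12 to 96 h. At 72 h, 7 genes (20.6%) were at least 1.5-fold below control, against 16.1% of all genes. At 12, 24, 48 and 96 h, 5, 6, 3 and 1 genes were that far below, against 23.3%, 12.2%, 20.4% and 12.7% of all genes.

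At 72 h all 10 licensing genes were lower in the LKO pool, with a median log2 difference of -0.40. Marker sums of several cell types were also lower in the LKO pool at 72 h. Hepatocyte markers summed to 99620 CPM against 130000 CPM in the control pool, with 3 of 7 markers higher and 4 lower. Markers of stellate cells and fibroblasts summed to 839 CPM against 1172 CPM in the control pool, although Dcn (288 against 222 CPM) and Reln (116 against 62.0 CPM) were higher. Neutrophil markers summed to 8.42 against 26.6 CPM, and cholangiocyte markers to 46.4 against 68.9 CPM. Most of the cholangiocyte sum came from Spp1 (37.3 against 56.5 CPM), and Prom1 (2.20 against 0.65 CPM) and Krt7 (1.29 against 1.05 CPM) were higher. Macrophage markers summed to 686 against 671 CPM and endothelial markers to 198 against 188 CPM. The part of these cells in the difference was not tested. Relative to the 0 h mice of the same genotype, Uhrf1 stood 68.9-fold higher in the control pool and 23.7-fold in the LKO pool. In the same order, Mcm5 stood 38.5-fold and 14-fold higher, Cdc6 31-fold and 18.1-fold, and Mcm6 24-fold and 9.18-fold. The Cdc6 folds rest on 0 h counts of 2 to 6 in control and 3 to 8 in LKO mice, and the control fold of Uhrf1 on 3 to 11. The 0 h means of LKO mice were higher than those of control mice in all 4 of these genes, by 3.9-fold for Uhrf1, 2.15-fold for Mcm5, 1.27-fold for Cdc6 and 2.18-fold for Mcm6. The levels themselves at 72 h were 50.7 CPM in the control pool and 39.6 CPM in the LKO pool for Mcm5, and 29.5 CPM in the control pool and 39.6 CPM in the LKO pool for Uhrf1. At 96 h, 9 of 10 licensing genes and all 7 synthesis genes were higher in the LKO pool, 7 and 4 of them by at least 1.5-fold. Uhrf1 then measured 1.63 CPM in the control pool and 8.77 CPM in the LKO pool. Rrm2 measured 5.03 CPM in the control pool and 18.5 CPM in the LKO pool. Cdt1 measured 1.91 CPM in the control pool and 6.80 CPM in the LKO pool. In these 3 genes the LKO pool held the higher level at 96 h. Mcm5 measured 4.04 CPM in the control pool and 9.21 CPM in the LKO pool, and Mcm10 went the other way at 101 CPM in the control pool and 59.2 CPM in the LKO pool. At 96 h the summed macrophage markers were 390 CPM in the control and 161 CPM in the LKO pool. Neutrophil markers stood at 8.64 and 2.14 CPM and hepatocyte markers at 108300 and 91240 CPM, in the same order. Endothelial sums (220 and 240 CPM) and cholangiocyte sums (22.7 and 25.3 CPM) went the other way. The part of these cells in the difference was not tested.

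**Figure D4:**
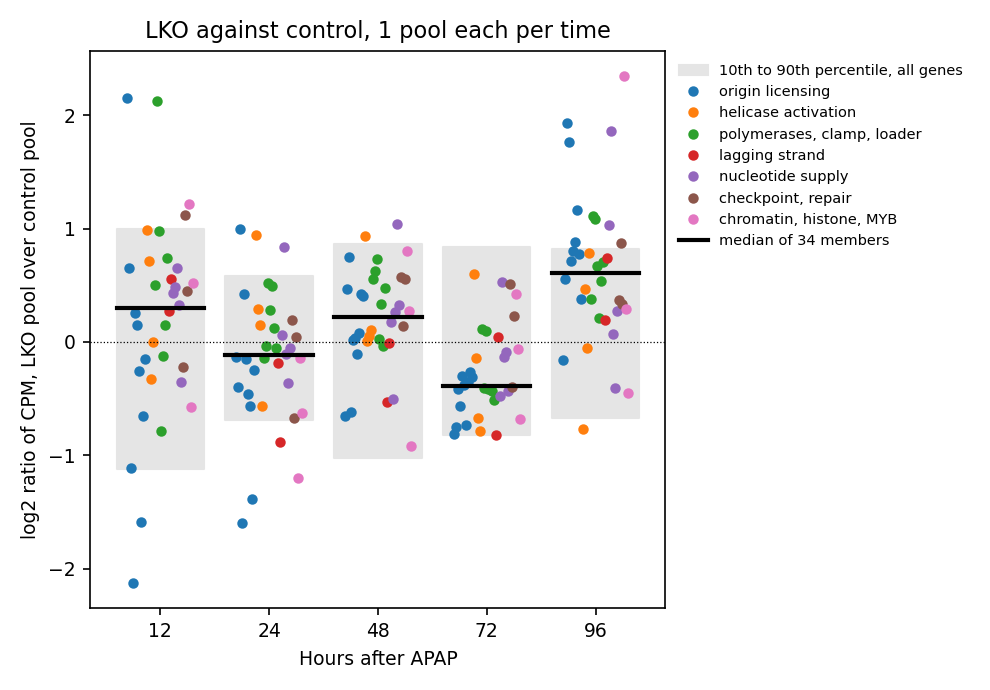
Log2 ratio of the LKO pool to the control pool for each of the 34 genes (points) at 12 to 96 h, with the median of the set and the range from the 10th to the 90th percentile of all genes at each time. The set sits mostly below 0 at 72 h and mostly above 0 at 96 h, with medians of -0.39 and 0.61 and 1 pool per genotype at each time.

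Of 53 further replication genes, 4 were higher and 8 lower at 12 h, beside the 16.5% and 14.1% of all genes. At 24, 48 and 72 h 11, 28 and 35 of them were higher, beside 13.7%, 9.63% and 10.8% of all genes, with 0 called at 96 h and 0 in either cohort at 0 h. Of 13 mitotic genes, none was higher at 12 or 24 h, when 5 and 2 were lower, and all 13 were higher at 48 and 72 h, with median log2 changes of 4.12 and 4.95, and 1 of them, Top2a, was still higher at 96 h. Of 13 genes of the E2F and RB families, 4 were higher at 72 h, beside the same 10.8%, among them E2f1 (log2 fold change 2.22, SE 0.197, adjusted p = 6.37e-07 by edgeR), and 1, E2f8, was higher in LKO than in control pools over 12 to 96 h (log2 fold change 1.53, SE 0.211, adjusted p = 0.0237 by edgeR). Of 7 genes of the S-phase cyclins and their regulators, 3 were higher at 72 h, namely Ccne1, Ccna2 and Ccnd1. Ccna2 then measured 20.7 CPM in the control and 21.8 CPM in the LKO pool. Ccne1 measured 11.6 and 2.87 CPM, and Ccnd1 145 and 41.9 CPM, in the same order. The LKO pool thus lay close to the highest LKO mouse at 0 h for Ccne1 (2.82 CPM) and Ccnd1 (41.7 CPM). The inhibitor Cdkn1a measured 366, 245 and 204 CPM in control pools and 200, 103 and 35.2 CPM in LKO pools at 12, 24 and 48 h, and its difference over 12 to 96 h did not pass (log2 fold change -1.44, adjusted p = 0.0682 by edgeR).

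Of the marker lists for other cells, those of macrophages and of stellate cells and fibroblasts had several members called higher at 48 and 72 h. Of 6 tested neutrophil markers, 4, 4 and 3 were higher at 12, 24 and 48 h, beside 16.5%, 13.7% and 9.63% of all genes. Of 8 macrophage markers, 3 were higher and 1 lower at 12 h, and 4 were higher and 3 lower at 24 h. The 8 macrophage markers summed to 126 to 312 CPM in the 8 mice at 0 h, 207 and 262 CPM in the control and LKO pools at 48 h, and 671 and 686 CPM at 72 h, and 5 of 8 were higher at each time. The 48 h sums thus lay within the range of the 0 h mice and the 72 h sums above it. The upper end of that range was LKO replicate 1, and the other 7 mice reached 199 CPM, below both 48 h sums. The 8 stellate cell and fibroblast markers summed to 139 to 257 CPM at 0 h, 378 and 357 CPM at 48 h, and 1172 and 839 CPM at 72 h, and 5 and 7 of 8 were higher, beside 9.63% and 10.8% of all genes. None of either list was at 0 in a pool at 48 or 72 h. For the other lists at 72 h, 2 of 6 tested neutrophil markers were higher and 0 lower, 0 of 7 lymphocyte markers were called, 3 of 8 endothelial and 1 of 7 cholangiocyte markers were lower, and the 1 tested erythroid marker was lower, beside 10.8% of all genes higher and 5.62% lower. Hepatocyte markers summed to 48450 CPM or more in every library, most of it from Alb. Of 7 tested hepatocyte markers, 1 was higher and 3 were lower at 24 h (13.7% and 11.2% of all genes), 2 were lower at 48 h (6.3%) and 1 at 72 h (5.62%). The cells in which the replication genes were transcribed, and the part of these markers in the rise at 48 and 72 h, were not tested.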

How the data were processed

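Liver RNA (polyA, extracted with TRIzol from snap-frozen tissue) was sequenced from 14 single mice and 10 pools. After trimming in Trimmomatic and STAR alignment against mm10, the authors deposited STAR's raw read counts per gene, with no normalization. The annotation version is not given in the sources used here. The count column that ignores strand was used, because both strand columns held near equal counts. The first 4 rows, which name no gene, held 18.7% to 39.9% of the counts (7.30% to 14.7% outside genes) and were left out. Among these rows is that of reads ambiguous between genes.

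Groups came from the sample labels. Genes passing edgeR's expression filter were fitted with edgeR 4.0.16 (R 4.3.3, limma 3.58.1) by its quasi-likelihood F-test, 2-sided, with TMM scaling and Benjamini-Hochberg adjustment over all genes tested. The time fits had genotype as a term, and the fit over 12 to 96 h had time as a block. Log2 values of pools used a prior count of 2. The alternatives were DESeq2 1.42.0, other scalings and filters, the stranded column, each genotype alone, and each mouse or pair of pools left out. The scripts were tested on simulated counts.

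The 34 genes and all lists were chosen with earlier results of these data known. Genes were named by rule: per comparison the 5 largest called changes in each direction, and 10 genes that stand for the roles. Gene positions and exon lengths came from GENCODE vM21 and promoters from RefSeq (GRCm38.p6). Promoters of Gins1, Gins2, Pole and Mcm4 were not used here. P-values at 0 h rest on separate mice, and the floor of 3 counts covers counting error only.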

Additional observations from a re-analysis of the deposited data

Results flagged for a closer look

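Of 68 groups of 4 mice (34 genes in LKO mice and in their controls at 0 h), 6 held a mouse whose gap to its nearest neighbour passed Dixon's critical value at the 95% level. Chance flags about 1 in 20 groups. Each is given as a value only.

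In LKO control replicate 3, Orc1 measured 0.421 CPM while the other 3 control mice had 0 counts, and Rfc4 measured 2.778 CPM beside 1.72 to 1.83 CPM. In LKO control replicate 4, Cdt1 measured 5.232 CPM beside 1.94 to 2.08 CPM, and Rfc5 measured 8.001 CPM beside 5.37 to 5.67 CPM (Wsb2 overlaps Rfc5 on the other strand). Among LKO mice, Pola1 measured 3.593 CPM in replicate 2 beside 5.11 to 5.36 CPM, and Tyms measured 10.83 CPM in replicate 4 beside 6.53 to 6.86 CPM.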

How the results depend on the processing

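Of 161 alternatives for the count of genes called, 152 stayed within 1.5 times the count given. At 12 h after APAP, 16 genes were called, against 9 with the stranded column, which holds only part of the same reads. The fits of 1 genotype set 1 pool against 4 mice, and only their median changes are given above. At 96 h, DESeq2 called 5 genes and a filter of at least 1 count called 1 (Uhrf1), where edgeR called 0; the cause was not tested. Over all genes, DESeq2 and edgeR called 331 and 119 in the HKO comparison, 606 and 74 between LKO and control over 12 to 96 h, 172 and 19 between the phases, and 332 and 55 at 96 h. Leaving out 1 mouse at a time gave 12 to 15 calls at 12 h, 16 to 19 at 24 h, 29 to 31 at 48 h, 31 to 31 at 72 h and 0 to 2 at 96 h (Uhrf1 and Mcm5, without LKO replicate 4), and 1 to 1 in the HKO comparison. Leaving out 1 pair of pools gave 0 to 1 calls between LKO and control over 12 to 96 h, with Mcm10 called without the 96 h pair.

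Of 1623 alternatives for single called genes, 1485 kept the call, 138 lost it and 0 changed direction. Of 16 genes called at 12 h, 11 stayed called whichever mouse was left out, while Mcm4 and Pola1 each lost the call in 6 of 8 cases, Brca1 in 5, Lig1 in 3 and Dut in 1 (without LKO control replicate 1). Of 19 at 24 h, 14 stayed called, and Cdt1, Rfc4 and Chek1 (4 cases each), Rfc3 (2) and Brca2 (1, without LKO control replicate 1) did not. Of 30 at 48 h, 29 stayed called, and Slbp lost its call in 3 cases. All 31 at 72 h stayed called. The 39 lost calls had adjusted p-values from 0.0501 to 0.0819 by edgeR. Tk1 in HKO mice passed in every alternative, with log2 fold changes from -1.21 to -0.99.

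Replicate numbers did not pair the mice. Deviations of same-numbered mice correlated at 0.197, -0.0306 and 0.104 in the HKO cohort and at -0.379, -0.188, 0.0981 and 0.222 in the LKO cohort, and 3 of 6 and 0 of 8 mice correlated best with their own number. With the replicate block, 1 gene of the set was called in HKO mice and 0 in LKO mice, and 263 in place of 119 of all genes in HKO mice. Scaling by library size alone moved the median of all genes to 0.13 in the LKO comparison at 0 h, 0.15 and 0.20 in the APAP comparisons at 24 and 48 h (20 and 32 genes called) and 0.12 in the comparison of phases, and in the ratio of LKO to control pools to 0.11 at 12 h, -0.14 at 48 h and 0.21 at 96 h. At 96 h, 21 of 34 genes were then at least 1.5-fold higher in LKO, against 24.4% of all genes.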
